A study of Mus musculus with 17 samples.

Results

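Meiotic prophase is the stage at which homologous chromosomes are cut, paired, joined by the synaptonemal complex and recombined, and a fixed set of germline genes builds the machinery for it. The genes described here are 35 of these, chosen by name and by role, out of a table of 24013 genes. They comprise 10 genes of the synaptonemal complex and chromosome axis, 4 of the meiotic cohesin ring, 7 of break formation, 6 of strand exchange, 3 of crossover formation, 3 of telomere attachment to the nuclear envelope and 2 of the RNA control of meiotic entry. A row was found for 34 of them, and all 34 passed the filter on low counts. Ankrd31, a break formation gene, was analysed here only in the search of promoters.

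In textbook accounts of the mouse testis the spermatogonia, which divide by mitosis, differentiate in response to retinoic acid, acquire the receptor KIT and express STRA8 before they enter meiosis. Transcripts of many meiotic genes are present in spermatogonia before prophase begins. The proteins MEIOC and YTHDC2 then bind RNA and are needed for the cells to leave the mitotic programme.

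Transcripts were counted by RNA sequencing in 17 libraries of sorted mouse testis germ cells. All mice carried the Tert-Tomato reporter as Tert-Tomato/+ on a mixed B6/J X B6/N background, so no group is free of the reporter. It reports Tert, the catalytic subunit of telomerase. P6gonocyte (n = 4) were TERT-positive cells of neonates at postnatal day 6 that also carried the germ cell reporter OCT4-GFP. KITpos (n = 5) were TERT-high, Kit-positive cells of adults, which the labels call differentiated spermatogonia. GFRA1pos (n = 4) were TERT-high, Kit-negative adult cells positive for GFRA1, a receptor for the niche factor GDNF, and GFRA1neg (n = 4) were TERT-high, Kit-negative adult cells without it. The gates sort by reporter and surface protein, so a library is a mixture of the cells that passed them, and in such bulk samples fewer cells of a type and less RNA per cell cannot be told apart. Nothing in the labels ties a library to an animal, and the p-values therefore cover only the spread between these libraries, possibly a technical one.

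The libraries held 6479216 to 8468203 counts each in P6gonocyte, 5178352 to 8300165 in KITpos, 10918223 to 11567191 in GFRA1pos and 9965437 to 12641907 in GFRA1neg. Values below are counts per 1000000 counts of TMM-scaled library size (CPM) unless given per kilobase, and differences are log2 fold changes ± standard error (SE) from edgeR's quasi-likelihood test over 15451 genes, called at an adjusted p under 0.05. The comparisons share groups, so their values are not independent of each other. Of the sort genes, Gfra1 and Kit followed the labels of the adult groups. Gfra1 averaged 390.0 CPM in GFRA1pos and 22.8 CPM in GFRA1neg, and Kit averaged 353 CPM in KITpos and 27.6 CPM in GFRA1neg. In P6gonocyte Kit averaged 188 CPM and Gfra1 145 CPM. Pou5f1, which encodes OCT4, averaged 19.7 CPM in P6gonocyte against 0.837 to 4.28 CPM in the adult groups. Tert averaged 7.21 CPM in P6gonocyte, 7.54 CPM in KITpos, 7.25 CPM in GFRA1pos and 11.3 CPM in GFRA1neg. The germ cell gene Ddx4 averaged 124 to 259 CPM in the 4 groups. Transcripts of other testis cells were not equal between groups. The sum of 15 spermatid markers lay between 15.3 and 19.2 CPM in the P6gonocyte libraries, with 3 markers at 0 in all of them, and reached 592 to 1944 CPM in KITpos, 121 to 2604 CPM in GFRA1pos and 609 to 2790 CPM in GFRA1neg. The sum of 15 Sertoli cell markers ran from 244 to 527 CPM in P6gonocyte, highest in replicate 2, and from 97.3 to 195 CPM in the adult libraries. Its mean was 323 CPM in P6gonocyte, 125 CPM in KITpos, 182 CPM in GFRA1pos and 113 CPM in GFRA1neg. Of these means the single marker Ctsl made up 175, 80.0, 159 and 78.5 CPM, most of the sum in the adult groups. The sum of 10 Leydig cell markers ran from 28.3 to 153 CPM in KITpos and from 10.6 to 34.2 CPM in the other groups, and the sum of 9 macrophage and leukocyte markers from 4.5 to 22.1 CPM in all libraries. In the GENCODE M21 annotation the exons of Sycp3, Psmc3ip, Rec114, Zcwpw1 and Msh4 overlap those of Chpt1, Mlx, Nptn, Pilra and Gm24395 on the opposite strand by 660, 385, 344, 468 and 125 bases. Those of Spata22 overlap Gm49340 on the same strand by 1025 bases. Reads from the shared bases could not be told from reads of the partners.

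**Figure D1:**
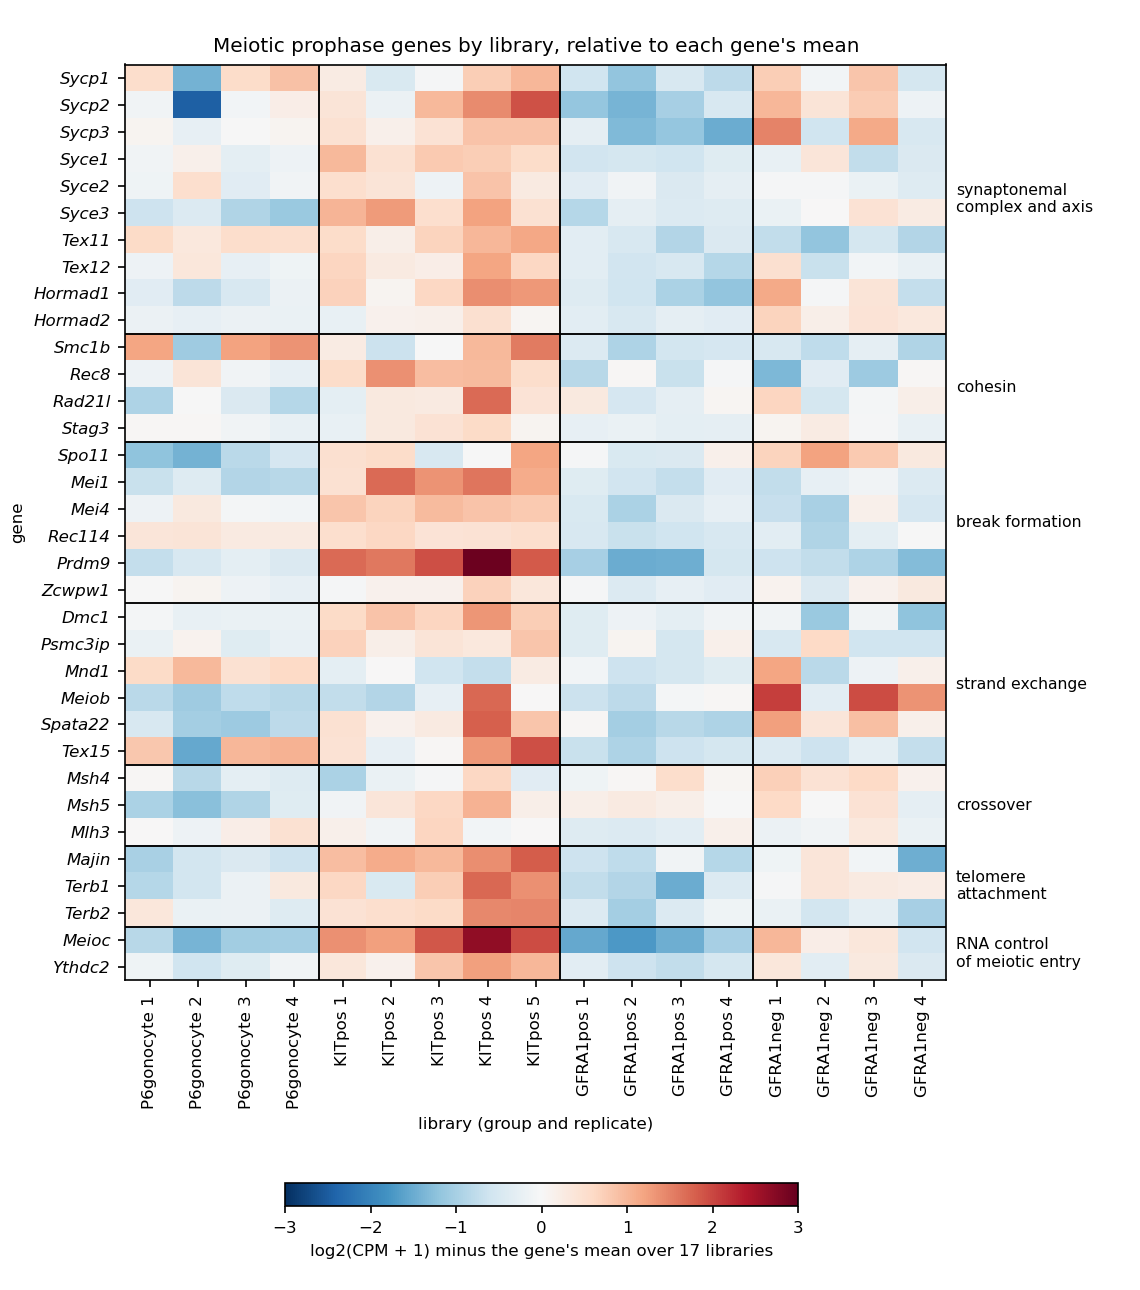
Level of the 34 meiotic genes (rows, by role) in the 17 libraries (columns, by group), as log2(CPM + 1) minus the gene's mean over all libraries, with red above and blue below that mean. KITpos libraries are red in most rows and GFRA1pos libraries are blue, while P6gonocyte replicate 2 is the bluest library of its group for Sycp1, Sycp2, Smc1b and Tex15.

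Transcripts of all 34 genes were counted in every group. Their summed level was 1668 ± 234 CPM in P6gonocyte (SD, n = 4), 2364 ± 605 CPM in KITpos (SD, n = 5), 1082 ± 59.9 CPM in GFRA1pos (SD, n = 4) and 1458 ± 263 CPM in GFRA1neg (SD, n = 4). By library it was 1778, 1324, 1732 and 1839 CPM in P6gonocyte, 1968, 1774, 2042, 3056 and 2977 CPM in KITpos, 1149, 1031, 1032 and 1118 CPM in GFRA1pos and 1741, 1308, 1611 and 1172 CPM in GFRA1neg. Every KITpos library lay above every GFRA1pos and GFRA1neg library, and every GFRA1pos library lay below every other library. Stag3, Tex15, Syce2, Smc1b and Tex11, the most abundant genes by mean CPM over the groups, weighed most in the sum. They averaged 221, 241, 159, 197 and 152 CPM in P6gonocyte and 276, 299, 209, 159 and 182 CPM in KITpos. In GFRA1pos they averaged 194, 97.4, 129, 68.0 and 75.3 CPM, and in GFRA1neg 236, 110, 141, 68.3 and 61.0 CPM. The mean was highest in KITpos for 27 genes, in GFRA1neg for 5 (Sycp3, Hormad2, Spo11, Meiob and Msh4) and in P6gonocyte for 2 (Smc1b and Mnd1). It was lowest in GFRA1pos for 20 genes, in P6gonocyte for 9 and in GFRA1neg for 5. The highest group mean exceeded the lowest by 1.31-fold for Mlh3, a crossover gene, and by 12.2-fold for Prdm9, the histone methyltransferase that marks the sites of meiotic breaks.

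Per kilobase of exon, where genes can be set beside each other, the 34 genes spanned a wide range of levels. The mean over the 4 groups was highest for Syce2 at 81.2 CPM per kb and Sycp3 at 70.3 CPM per kb, a central element and an axis protein of the synaptonemal complex. Syce1, Stag3, Tex11 and Smc1b followed at 40.7, 40.4, 32.4 and 30.4 CPM per kb. The lowest level was that of Spo11, the enzyme that makes the breaks, at 0.871 CPM per kb, below Msh5, Msh4 and Majin at 1.36, 1.39 and 1.53 CPM per kb. In KITpos the break formation genes spanned 1.12 CPM per kb for Spo11, 6.86 for Prdm9, 7.93 for Mei4, 10.2 for Mei1, 24.5 for Zcwpw1 and 28.8 for Rec114.

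The difference between KITpos and GFRA1neg asks which meiotic transcripts differ between Kit-positive cells and the Kit-negative cells that lack GFRA1. In KITpos 18 of the 34 genes rose and none fell, with a median log2 fold change of 0.70 over the 34 against 0.03 over all genes tested. The share that rose was 52.9%, against 22.1% of all genes tested, where a further 23.0% fell. Counted in either direction, 45.1% of all genes were called, not far from the share of members. The rises covered 4 of 6 break formation genes, 5 of 10 synaptonemal complex and axis genes, 2 of 4 cohesin genes, 3 of 6 strand exchange genes, 2 of 3 telomere attachment genes and both RNA control genes, but none of the 3 crossover genes. The largest rises were those of Prdm9, Majin, Mei1 and Terb2. The values of the groups were fully apart for 13 of the 34 genes, against 33.8% of all genes. Within KITpos, replicate 4 held the highest value for 16 of the 34 genes and replicate 5 for 11, while replicate 2 held the lowest for 17.

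Among the break formation genes, Prdm9 had 22.3, 20.3, 26.3, 54.2 and 24.6 CPM in the KITpos libraries, against 3.67, 3.28, 2.77 and 1.88 CPM in GFRA1neg. The lowest KITpos library thus lay above the highest GFRA1neg library, and KITpos replicate 4 stood above the rest of its group. The rise was 3.34 ± 0.35 on the log2 scale, or 10.1-fold (adjusted p = 3.7e-07). Mei1, which is needed for breaks to form, had 26.3, 63.5, 49.7, 59.5 and 42.1 CPM in KITpos, against 10.9, 15.7, 17.4 and 13.9 CPM in GFRA1neg, a rise of 1.74 ± 0.23 (adjusted p = 5.0e-06). Mei4, a partner of REC114 in the break machinery, had 33.0, 29.3, 35.9, 33.4 and 31.7 CPM in KITpos, against 10.8, 8.72, 20.1 and 12.4 CPM in GFRA1neg, a rise of 1.33 ± 0.22 (adjusted p = 6.1e-05). The KITpos values of Mei4 were close together, and its groups, like those of Mei1, did not overlap. Rec114 averaged 36.8 ± 2.24 CPM in KITpos (SD, n = 5) and 20.2 ± 5.09 CPM in GFRA1neg (SD, n = 4), a rise of 0.87 ± 0.16 (adjusted p = 0.00014). The genes that did not pass were Spo11, at 4.38 CPM in KITpos and 5.72 CPM in GFRA1neg (adjusted p = 0.47), and Zcwpw1, a reader of the histone marks that PRDM9 writes. Zcwpw1 had 112, 127, 126, 187 and 147 CPM in KITpos, against 125, 85.6, 126 and 142 CPM in GFRA1neg, with overlapping groups (adjusted p = 0.27).

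In the strand exchange group Dmc1, the recombinase of meiosis, had 32.5, 39.9, 34.4, 55.3 and 36.9 CPM in KITpos, against 19.9, 9.44, 20.2 and 8.88 CPM in GFRA1neg. The groups did not overlap, and the GFRA1neg libraries fell at either end of their range, with replicates 1 and 3 high and replicates 2 and 4 low. Dmc1 rose by 1.45 ± 0.24 (adjusted p = 5.6e-05). Tex15, which is needed for recombinase loading at breaks, had 213, 131, 161, 385 and 604 CPM in KITpos, against 117, 101, 128 and 95.3 CPM in GFRA1neg (1.44 ± 0.43, adjusted p = 0.01). KITpos replicates 4 and 5 carried the high values of Tex15, and replicate 2 the lowest. Psmc3ip, which with MND1 assists DMC1, also rose (0.68 ± 0.24, adjusted p = 0.027). Its partner Mnd1 averaged 10.8 CPM in KITpos and 15.7 CPM in GFRA1neg and did not pass (adjusted p = 0.18). The single-strand binding partners Meiob and Spata22 did not pass either: Meiob averaged 6.72 CPM in KITpos and 16.6 CPM in GFRA1neg (-1.31 ± 0.54, adjusted p = 0.054), and Spata22 14.0 CPM in KITpos and 12.8 CPM in GFRA1neg (adjusted p = 0.82).

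Among the synaptonemal complex and axis genes, Tex11, whose X-linked product acts at synapsis and in crossover formation, had 159, 122, 172, 217 and 241 CPM in KITpos, against 64.5, 47.1, 74.2 and 58.1 CPM in GFRA1neg. The groups did not overlap, and the rise was 1.58 ± 0.18 (adjusted p = 1.1e-06). The 4 other genes that rose were all central element genes, Syce1 (0.92 ± 0.18), Syce3 (0.85 ± 0.25), Tex12 (0.72 ± 0.23) and Syce2 (0.56 ± 0.18). Syce2, the most abundant of the subclass, had 222, 205, 141, 287 and 191 CPM in KITpos, against 153, 153, 138 and 121 CPM in GFRA1neg, and its groups overlapped. The transverse filament gene Sycp1 averaged 95.5 CPM in KITpos and 92.2 CPM in GFRA1neg, and the axis gene Sycp3 averaged 116 CPM in KITpos and 124 CPM in GFRA1neg. Neither passed, nor did the axis genes Sycp2, Hormad1 and Hormad2 (adjusted p = 0.16 to 0.93 over the 5 genes).

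Of the cohesin subunits, Rec8, the kleisin of the ring, averaged 23.9 ± 6.29 CPM in KITpos (SD, n = 5) and 7.97 ± 3.93 CPM in GFRA1neg (SD, n = 4), a rise of 1.58 ± 0.31 (adjusted p = 0.00039) with no overlap. Smc1b had 123, 65.3, 102, 202 and 304 CPM in KITpos, against 73.9, 60.1, 84.8 and 54.6 CPM in GFRA1neg (1.22 ± 0.41, adjusted p = 0.021), and KITpos replicate 2 lay inside the GFRA1neg range. The deviations of KITpos replicates 2 and 5, the lowest and the highest for both Smc1b and Tex15, correlated with exonic GC content at Spearman's rho = 0.44 and -0.32 across 14611 genes, which are not independent replicates; the part of GC content in these values was not tested. Stag3 had 199, 282, 314, 343 and 244 CPM in KITpos, against 246, 274, 225 and 199 CPM in GFRA1neg, and did not pass (adjusted p = 0.19), nor did the other kleisin Rad21l (adjusted p = 0.23). The telomere attachment genes were low in every group. Majin, a membrane protein, averaged 6.39 CPM in KITpos and 1.65 CPM in GFRA1neg (1.93 ± 0.54, adjusted p = 0.0067). Its partner Terb2 averaged 11.0 CPM in KITpos and 3.41 CPM in GFRA1neg (1.68 ± 0.34, adjusted p = 0.00053). Terb1, which binds the telomere protein TRF1, had 9.94, 4.17, 10.8, 22.5 and 17.3 CPM in KITpos, against 5.93, 8.08, 7.51 and 7.21 CPM in GFRA1neg, and did not pass (adjusted p = 0.092). Msh4, Msh5 and Mlh3, which act at recombination intermediates, had adjusted p of 0.081, 0.48 and 0.42. Mlh3 averaged 39.9 CPM in KITpos and 34.9 CPM in GFRA1neg.

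Meioc, which with YTHDC2 is needed to leave the mitotic programme, had 81.8, 73.6, 115, 199 and 122 CPM in KITpos, against 62.7, 35.7, 39.5 and 20.4 CPM in GFRA1neg. No library of KITpos fell below one of GFRA1neg, and Meioc rose by 1.58 ± 0.29 (adjusted p = 0.00022). Ythdc2, an RNA helicase, had 70.8, 60.3, 100.0, 131 and 112 CPM in KITpos, against 70.4, 44.5, 68.7 and 40.7 CPM in GFRA1neg, a rise of 0.76 ± 0.22 with overlapping groups (adjusted p = 0.0076). In the same comparison 8 of 9 tested Leydig cell markers rose in KITpos, with no marker at 0 in either group, and 5 of 13 tested Sertoli cell markers rose and 1 fell. Their part in the differences of the meiotic genes was not tested. The rises of Smc1b, Psmc3ip, Tex12, Syce2 and Syce3 missed the threshold in 5, 6, 5, 2 and 1 of 17 alternative settings. Of the genes not called, Meiob passed as lower in 7 of these settings, Msh4 in 2 and Mnd1 in 1. Hormad1, Stag3 and Terb1 passed as higher in 1, 2 and 1 of them.

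**Figure D2:**
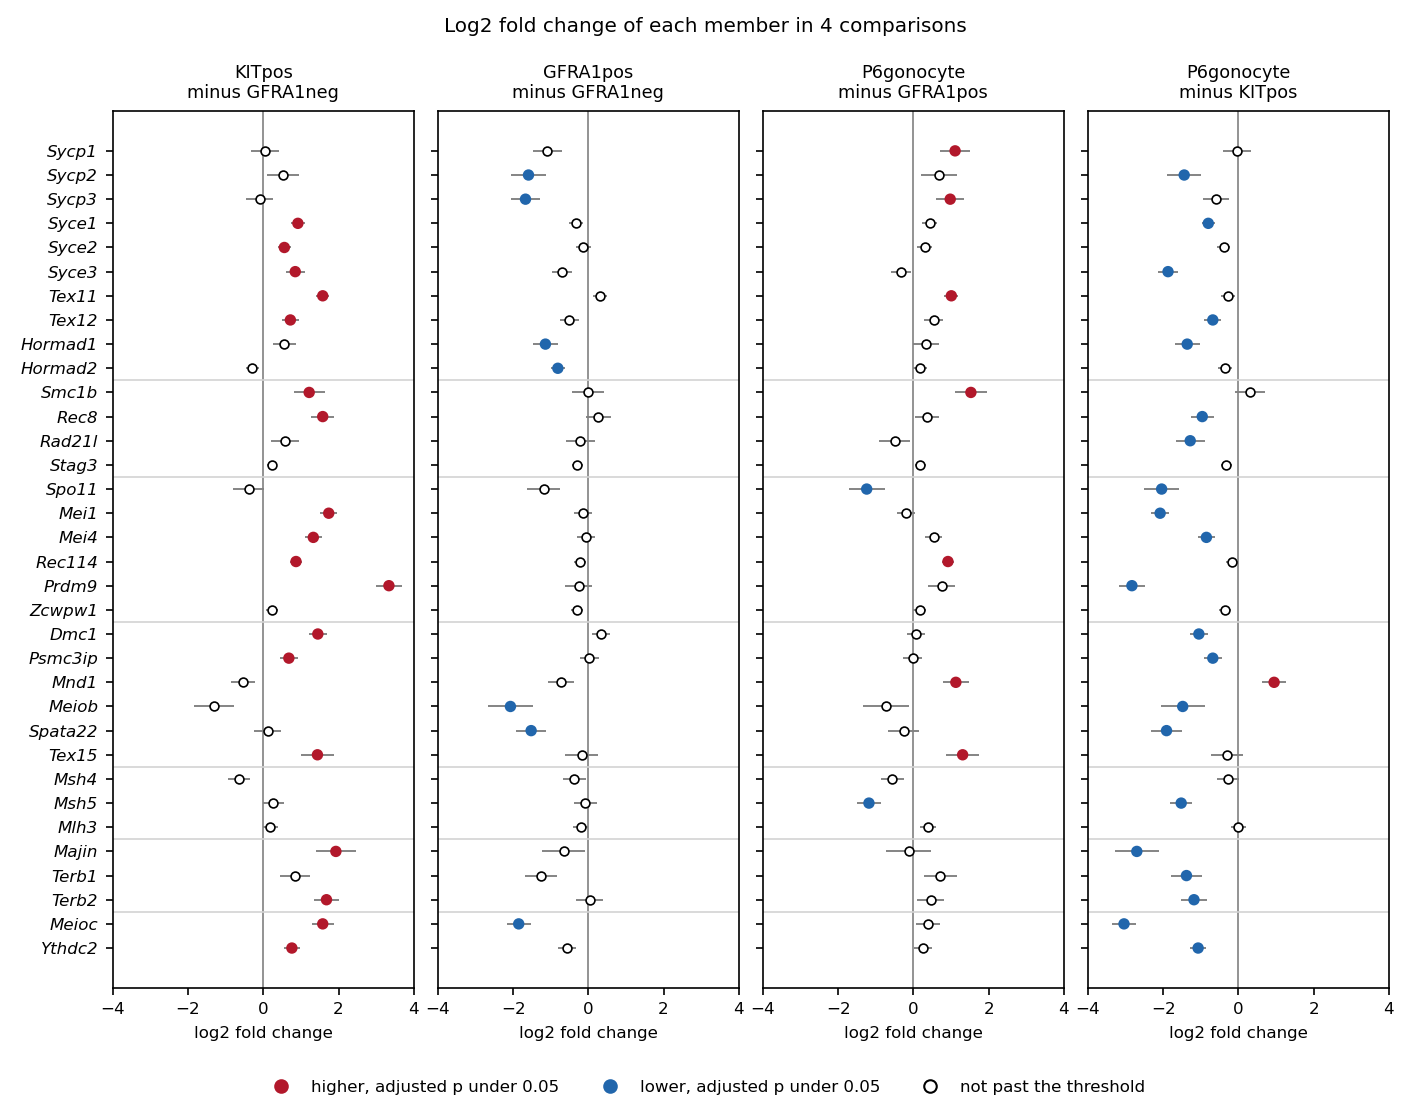
Log2 fold change (horizontal axis) of each of the 34 genes in the 4 comparisons, with bars of ± 1 SE from edgeR. Filled points passed an adjusted p of 0.05, red above and blue below 0, and open points did not, and grey lines part the roles in the order of the heatmap. The 18 filled points of KITpos minus GFRA1neg are all red and the 7 of GFRA1pos minus GFRA1neg are all blue.

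GFRA1pos and GFRA1neg are the Kit-negative adult groups, and their difference asks whether meiotic transcripts differ between cells with and without GFRA1. In GFRA1pos 7 of the 34 genes fell and none rose, with a median log2 fold change of -0.31 against -0.04 over all genes. The share that fell was 20.6%, against 6.84% of all genes, where 7.3% rose (14.1% called in either direction). The falls were those of 4 synaptonemal complex and axis genes (Sycp3, Sycp2, Hormad1 and Hormad2), of the single-strand binding partners Meiob and Spata22, and of Meioc. None of the 4 cohesin, 6 break formation, 3 crossover and 3 telomere attachment genes passed. Libraries did not overlap for 7 of the 34 genes, against 23.3% of all genes.

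Meioc had 10.0, 8.59, 10.5 and 14.9 CPM in GFRA1pos, against 62.7, 35.7, 39.5 and 20.4 CPM in GFRA1neg. All GFRA1pos libraries lay below all GFRA1neg libraries, and the fall was 3.59-fold (-1.85 ± 0.32, adjusted p = 0.00051). Ythdc2, its partner, had 44.6, 35.6, 32.6 and 37.9 CPM in GFRA1pos, within or just below the GFRA1neg range of 40.7 to 70.4 CPM, and did not pass (-0.57 ± 0.23, adjusted p = 0.1).

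Sycp3 had 63.9, 30.5, 34.3 and 26.8 CPM in GFRA1pos, against 218, 50.6, 172 and 55.4 CPM in GFRA1neg. GFRA1neg replicates 1 and 3 were high and replicates 2 and 4 low, and GFRA1pos replicate 1 lay above the lower pair. The difference was -1.67 ± 0.38 (adjusted p = 0.005). Hormad2, an axis protein that marks unsynapsed chromosomes, had 10.2, 9.08, 10.7 and 10.0 CPM in GFRA1pos, against 21.4, 14.9, 17.7 and 16.5 CPM in GFRA1neg, with no overlap (-0.81 ± 0.19, adjusted p = 0.0054). Its relative Hormad1 averaged 16.9 CPM in GFRA1pos and 37.1 CPM in GFRA1neg (-1.14 ± 0.34, adjusted p = 0.028). Sycp2, the axis partner of SYCP3, had 11.5, 9.66, 12.9 and 18.9 CPM in GFRA1pos, against 54.2, 35.7, 46.1 and 23.9 CPM in GFRA1neg (-1.59 ± 0.47, adjusted p = 0.028), with no overlap. Sycp1 fell short of the threshold (-1.09 ± 0.39, adjusted p = 0.073). The central element genes Syce1, Syce2, Syce3 and Tex12 did not pass, with adjusted p between 0.093 and 0.73.

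Meiob, a single-strand DNA binding protein of recombination, had 2.93, 2.54, 4.93 and 5.32 CPM in GFRA1pos, against 25.0, 3.92, 22.8 and 14.5 CPM in GFRA1neg. GFRA1neg replicate 2 lay inside the GFRA1pos range and the other GFRA1neg libraries lay above it (-2.07 ± 0.59, adjusted p = 0.023). Spata22, its partner, had 7.54, 3.12, 3.72 and 3.38 CPM in GFRA1pos, against 18.7, 9.68, 14.6 and 8.29 CPM in GFRA1neg, and the groups did not overlap (-1.52 ± 0.40, adjusted p = 0.014). The other strand exchange genes did not pass. Dmc1 averaged 18.4 CPM in GFRA1pos and 14.6 CPM in GFRA1neg, and Tex15 averaged 97.4 CPM in GFRA1pos and 110.0 CPM in GFRA1neg.

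GFRA1neg replicate 1 held the highest value of its group for 16 of the 34 genes, and replicate 4 the lowest for 18. The count of 7 genes fell to 3 (Meioc, Sycp3 and Hormad2) without GFRA1neg replicate 1, to 4 without GFRA1neg replicate 3 and to 4 without GFRA1pos replicate 2. None of 15 spermatid markers passed in either direction in edgeR's test, with summed levels of 121 to 2604 CPM in GFRA1pos and 609 to 2790 CPM in GFRA1neg. Of 19 pachytene spermatocyte markers 3 fell in GFRA1pos and none rose, with summed levels of 423 to 1633 CPM in GFRA1pos and 871 to 3014 CPM in GFRA1neg. The part of either marker list in the fall of the 7 genes was not tested.

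**Figure D3:**
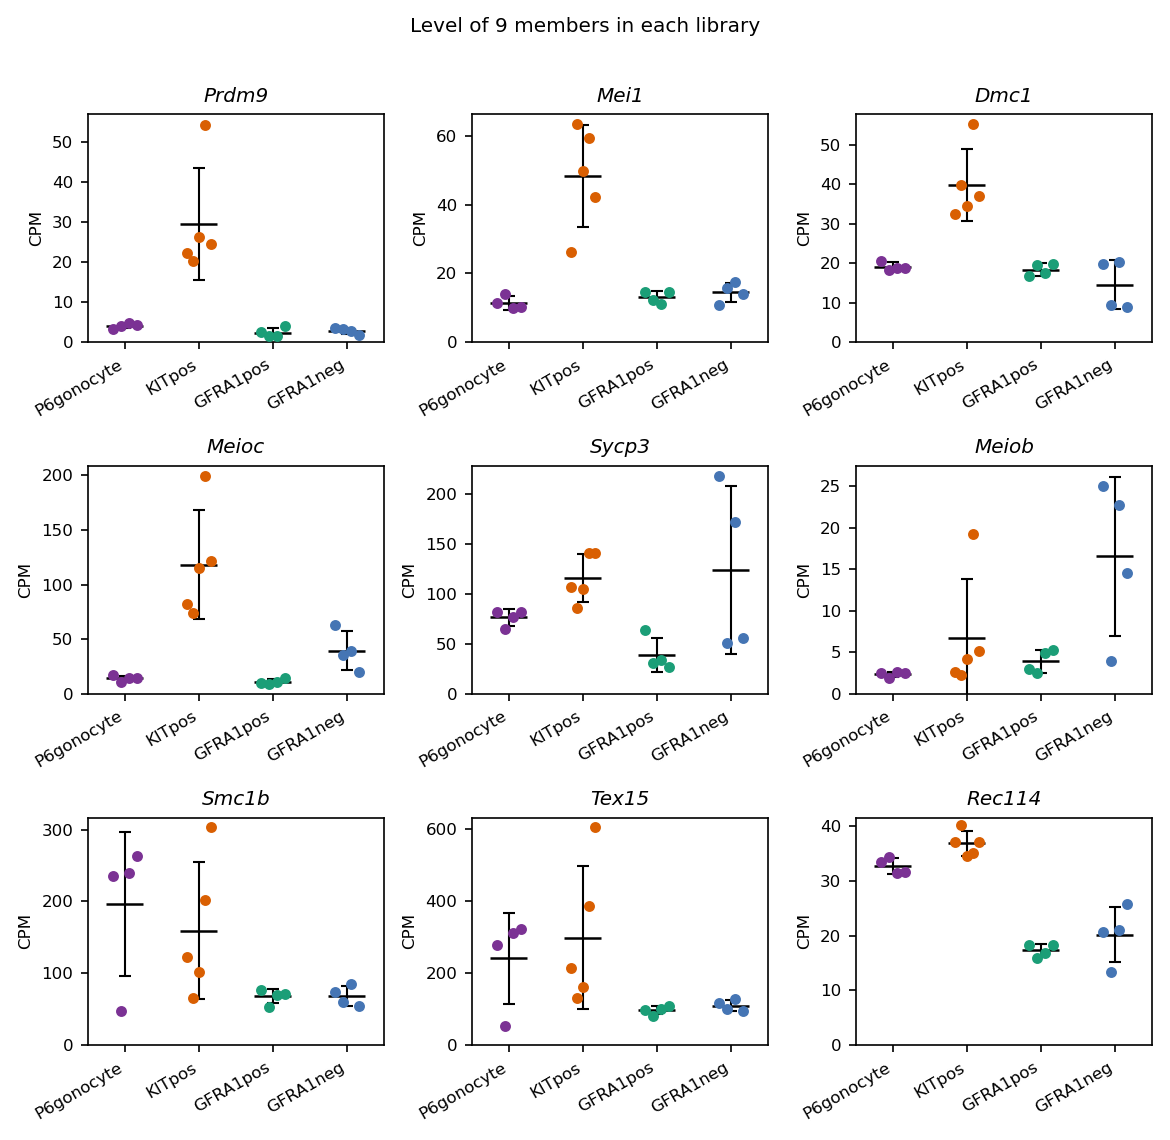
CPM of 9 meiotic genes in every library (points), with the group mean (line) and ± SD (bars), on axes that start at 0; the lower bar of Meiob in KITpos runs below 0 and is not drawn past it. Prdm9, Mei1 and Meioc stand highest in KITpos without overlap, Sycp3 and Meiob spread widely in GFRA1neg, and P6gonocyte replicate 2 lies far below the rest of its group for Smc1b and Tex15.

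The comparison of P6gonocyte with GFRA1pos sets germ cells of the day 6 testis beside adult GFRA1-positive cells. In P6gonocyte 7 of the 34 genes rose and 2 fell, with a median log2 fold change of 0.34 against -0.05 over all genes. Of all genes 17.3% rose and 21.9% fell (39.2% called in either direction), so the 20.6% of members that rose were near the background, and 26.5% of members were called in either direction. Higher in P6gonocyte were the synaptonemal complex genes Tex11, Sycp1 and Sycp3, the cohesin subunit Smc1b, the break gene Rec114 and the strand exchange genes Mnd1 and Tex15, and lower were Spo11 and Msh5. Libraries did not overlap for 10 of the 34 genes, against 41.5% of all genes.

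Rec114 had 33.5, 34.3, 31.4 and 31.6 CPM in P6gonocyte, against 18.2, 15.9, 16.9 and 18.2 CPM in GFRA1pos. Both groups were narrow and apart, and the rise was 0.92 ± 0.16 (adjusted p = 0.00032). Tex11 had 162, 135, 155 and 154 CPM in P6gonocyte, against 86.5, 76.7, 58.0 and 80.0 CPM in GFRA1pos, again with no overlap (1.01 ± 0.19, adjusted p = 0.00044). Mnd1 had 19.6, 25.9, 18 and 19.9 CPM in P6gonocyte, against 12.0, 8.0, 8.55 and 9.63 CPM in GFRA1pos (1.13 ± 0.34, adjusted p = 0.014). The groups of Mnd1 did not overlap either. Its partner Psmc3ip averaged 29.7 CPM in P6gonocyte and 30.1 CPM in GFRA1pos.

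The cohesin gene Smc1b had 235, 48.2, 240.0 and 263 CPM in P6gonocyte, against 76.7, 53.9, 69.6 and 72.0 CPM in GFRA1pos (1.53 ± 0.43, adjusted p = 0.0084). Tex15 had 277, 53.5, 312 and 322 CPM in P6gonocyte, against 98.1, 82.0, 101 and 109 CPM in GFRA1pos (1.31 ± 0.44, adjusted p = 0.026). Sycp1 had 105, 26.7, 107 and 135 CPM in P6gonocyte, against 47.9, 31.5, 51.7 and 41.9 CPM in GFRA1pos (1.11 ± 0.39, adjusted p = 0.032). In all 3 genes P6gonocyte replicate 2 lay below every GFRA1pos library and the other P6gonocyte libraries lay above them. P6gonocyte replicate 2 also had the highest Sertoli marker sum of the series, and 901 genes, 5.83% of those tested, were more than 2-fold below all other P6gonocyte libraries in it. That count was 128 to 242 genes in the other P6gonocyte libraries. Within their own groups it was 956 in GFRA1pos replicate 1, 860 in KITpos replicate 5 and 760 in KITpos replicate 4. The deviations of P6gonocyte replicate 2 correlated with exonic GC content at Spearman's rho = 0.33 across 14611 genes. The exons of Sycp1, Smc1b and Tex15 have a GC content of 34.6%, 39.8% and 37.4%, against a median of 49.8% over the tested genes and 42.0% over the 34 members. Sycp2, with a GC content of 36.4%, also stood low in this library, at 4.09 CPM (others 24.9 to 31.1 CPM). The exons of Tex12 and Sycp3 have a lower GC content still, 34.3% each. In this library Tex12 was the highest of its group at 31.9 CPM (others 21.1 to 23.1 CPM). Sycp3 was the lowest of its group at 64.7 CPM (others 76.4 to 82.3 CPM). The deviations of P6gonocyte replicate 2 correlated with exonic length at -0.25. The part of GC content, of length or of Sertoli cell transcripts in the low values was not tested. Smc1b passed in each of 16 alternative settings, while the calls of Sycp1 and Tex15 were lost in 7 each, among them limma voom and the fits without P6gonocyte replicate 1, 3 or 4; without replicate 2 they passed. Sycp3 averaged 76.4 ± 8.32 CPM in P6gonocyte and 38.9 ± 17 CPM in GFRA1pos (SD, n = 4 each), a rise of 0.98 ± 0.37 (adjusted p = 0.045) with no overlap.

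Spo11 had 0.694, 0.481, 1.24 and 1.79 CPM in P6gonocyte, against 2.84, 1.85, 1.91 and 3.38 CPM in GFRA1pos (-1.24 ± 0.48, adjusted p = 0.046). Msh5, a partner of MSH4 in the stabilisation of recombination intermediates, had 3.19, 2.4, 3.31 and 5.22 CPM in P6gonocyte, against 8.07, 8.69, 8.15 and 7.01 CPM in GFRA1pos (-1.18 ± 0.31, adjusted p = 0.0057). All P6gonocyte libraries lay below all GFRA1pos libraries for both genes, at low levels. Of the remaining genes, Meioc averaged 14.3 CPM in P6gonocyte and 11.0 CPM in GFRA1pos (adjusted p = 0.36), and Prdm9 averaged 4.14 CPM in P6gonocyte and 2.43 CPM in GFRA1pos (adjusted p = 0.098). Among markers of other cells, 15 of 15 spermatid and 13 of 19 pachytene spermatocyte markers fell and 11 of 13 Sertoli cell markers rose in P6gonocyte, and their part in the differences of the meiotic genes was not tested. The 9 calls became 5 without P6gonocyte replicate 1 and 5 without P6gonocyte replicate 3, and the calls of Sycp3 and Spo11 were lost in 9 and 10 of 16 alternative settings.

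P6gonocyte and KITpos both carried Kit transcript. Relative to KITpos, 21 of the 34 genes fell and 1 rose in P6gonocyte, with a median log2 fold change of -0.90 against -0.09 over all genes. The share that fell was 61.8%, against 27.3% of all genes, where 21.8% rose (49.1% called in either direction). The falls comprised 5 of 10 synaptonemal complex and axis genes, 2 of 4 cohesin genes, 4 of 6 break formation genes, 4 of 6 strand exchange genes, 1 of 3 crossover genes, all 3 telomere attachment genes and both RNA control genes. Mnd1 was the gene that rose. Libraries did not overlap for 19 of the 34 genes, against 35.9% of all genes.

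Meioc showed the largest fall, with 16.9, 11.2, 14.4 and 14.8 CPM in P6gonocyte, against 81.8, 73.6, 115, 199 and 122 CPM in KITpos (-3.04 ± 0.32, 8.25-fold lower, adjusted p = 7.2e-07). Prdm9 had 3.33, 4.09, 4.86 and 4.26 CPM in P6gonocyte, against 22.3, 20.3, 26.3, 54.2 and 24.6 CPM in KITpos (-2.83 ± 0.34, adjusted p = 4.0e-06). Mei1 had 11.4, 14.1, 9.83 and 10.2 CPM in P6gonocyte, against 26.3, 63.5, 49.7, 59.5 and 42.1 CPM in KITpos (-2.08 ± 0.23, adjusted p = 1.5e-06). For all 3 genes the highest P6gonocyte library lay well below the lowest KITpos library. Syce3, a central element protein, had 4.86, 5.77, 3.83 and 3.16 CPM in P6gonocyte, against 17.1, 20.8, 11.7, 19.6 and 11.4 CPM in KITpos (-1.87 ± 0.27, adjusted p = 2.5e-05). Msh5 had 3.19, 2.4, 3.31 and 5.22 CPM in P6gonocyte, against 6.44, 9.28, 11.3, 15.5 and 8.14 CPM in KITpos (-1.52 ± 0.30, adjusted p = 0.00046). Neither Syce3 nor Msh5 overlapped between the groups. Other falls were those of Majin (-2.70 ± 0.58), Spo11 (-2.04 ± 0.47), Spata22 (-1.91 ± 0.40), Terb1 (-1.38 ± 0.41) and Dmc1 (-1.05 ± 0.23). Terb1 had 2.92, 3.85, 5.28 and 7.7 CPM in P6gonocyte, and its lowest KITpos library, at 4.17 CPM, lay within that range.

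Mnd1 had 19.6, 25.9, 18 and 19.9 CPM in P6gonocyte, against 10.2, 12.8, 8.04, 7.33 and 15.4 CPM in KITpos. No library of KITpos reached the P6gonocyte range, and the rise was 0.95 ± 0.32 (adjusted p = 0.02). The genes that did not pass included several with high counts in both groups. Tex11 averaged 152 CPM in P6gonocyte and 182 CPM in KITpos, Rec114 averaged 32.7 CPM in P6gonocyte and 36.8 CPM in KITpos, Smc1b averaged 197 CPM in P6gonocyte and 159 CPM in KITpos, and Stag3 averaged 221 CPM in P6gonocyte and 276 CPM in KITpos. Mlh3 had 36.2, 32.3, 41.3 and 49.5 CPM in P6gonocyte, against 40.0, 33.2, 56.4, 33.9 and 35.9 CPM in KITpos, with group means of 39.8 CPM in P6gonocyte and 39.9 CPM in KITpos. In this comparison 15 of 15 spermatid markers, 18 of 19 pachytene spermatocyte markers and 6 of 9 Leydig cell markers fell in P6gonocyte while 11 of 13 Sertoli cell markers rose, and their part in the falls was not tested. The fall of Meiob was lost in 9 of 17 alternative settings and those of Psmc3ip and Tex12 in 5 and 4, and the rise of Mnd1 missed the threshold without P6gonocyte replicate 2.

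**Figure D4:**
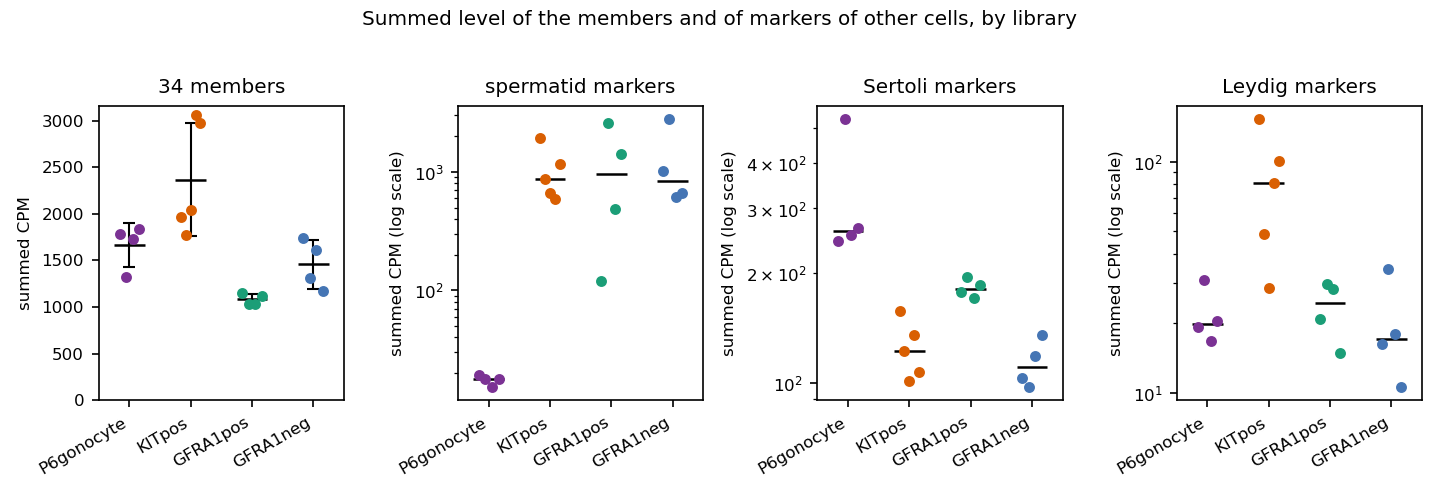
Summed CPM per library (points) of the 34 meiotic genes, with mean and ± SD, and of spermatid, Sertoli cell and Leydig cell markers, on log axes with the group median (line). The meiotic sum is highest in KITpos and lowest in GFRA1pos, spermatid markers lie at 15.3 to 19.2 CPM in P6gonocyte, below every adult library, Sertoli markers are highest in P6gonocyte, and Leydig markers are highest in KITpos.

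Several of the meiotic proteins have a relative that does the same work in mitotic cells, and the ratio of their levels per kilobase shows how far the meiotic form was present. Rec8 over Rad21, the mitotic kleisin, averaged 0.0323 ± 0.0102 (SD over libraries, as for the ratios that follow) in P6gonocyte, 0.0988 ± 0.0273 in KITpos, 0.0307 ± 0.0128 in GFRA1pos and 0.0329 ± 0.0164 in GFRA1neg, and every KITpos library lay above every library of the other groups. Smc1b over Smc1a was 2.91 ± 1.40 in P6gonocyte, 6.62 ± 3.76 in KITpos, 2.50 ± 0.182 in GFRA1pos and 3.15 ± 0.583 in GFRA1neg. Stag3 over Stag2 was 5.03 ± 1.10 in P6gonocyte, 10.2 ± 3.64 in KITpos, 7.51 ± 1.09 in GFRA1pos and 7.86 ± 1.65 in GFRA1neg. The mean ratio was above 1 for Smc1b over Smc1a and Stag3 over Stag2 in every group, and Rec8 over Rad21 was far below 1 in every library. Among 22 mitotic relatives and partners, 7 rose and none fell in KITpos against GFRA1neg, led by Brca1 (0.99 ± 0.14), with a median log2 fold change of 0.36. In P6gonocyte against GFRA1pos 11 of the 22 rose and 1 fell, among them the cohesin genes Stag1 (0.87 ± 0.15), Smc1a (1.26 ± 0.22) and Smc3 (1.35 ± 0.30). In GFRA1pos against GFRA1neg 4 rose and none fell, among them Msh6, Brca1 and Rad21, and in P6gonocyte against KITpos 8 rose and 2 fell. Their median log2 fold changes in these 3 comparisons were 0.39 in P6gonocyte against GFRA1pos, 0.14 in GFRA1pos against GFRA1neg and 0.15 in P6gonocyte against KITpos, with medians over all genes of -0.05, -0.04 and -0.09. Of all genes 22.1% rose and 23.0% fell in KITpos against GFRA1neg, and 7.3% rose and 6.84% fell in GFRA1pos against GFRA1neg. In P6gonocyte 17.3% of all genes rose and 21.9% fell against GFRA1pos, and 21.8% rose and 27.3% fell against KITpos.

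Of 15 regulators of meiotic entry, 6 rose and 7 fell in KITpos against GFRA1neg, with a median log2 fold change of -0.11. Stra8, which encodes the retinoic acid target needed for meiotic initiation, averaged 249 ± 59.5 CPM in KITpos (SD, n = 5) and 9.92 ± 0.918 CPM in GFRA1neg (SD, n = 4), a rise of 4.64 ± 0.24 (adjusted p = 4.9e-11). The homeobox gene Rhox13 rose by 2.81 ± 0.22 (adjusted p = 1.2e-08). Pcgf6 (-2.29 ± 0.19) and Max (-1.57 ± 0.13), subunits of a Polycomb complex known in mouse embryonic stem cells to repress germline genes, fell together with E2f6 (-1.15 ± 0.15), which encodes another subunit. Of other subunits in this list, Mga fell less (-0.52 ± 0.19, adjusted p = 0.036) and L3mbtl2 did not pass (0.01 ± 0.12, adjusted p = 0.97). In GFRA1pos against GFRA1neg 1 regulator rose and 3 fell (median -0.25). Stra8 rose by 1.24 ± 0.23 (adjusted p = 0.00098) in GFRA1pos, where it averaged 23.4 ± 3.33 CPM, and Sohlh1 (-1.09 ± 0.24), Dazl (-0.62 ± 0.16) and Mga (-0.63 ± 0.21) fell. In P6gonocyte against GFRA1pos 8 rose and 3 fell, with Dazl, an RNA-binding protein of germ cells, at 870.0 CPM in P6gonocyte and 264 CPM in GFRA1pos (1.72 ± 0.17, adjusted p = 2.2e-06) and Stra8 at 73.5 CPM in P6gonocyte and 23.4 CPM in GFRA1pos (1.65 ± 0.22). In P6gonocyte against KITpos 6 rose, led by Pcgf6 (1.99 ± 0.19) and E2f6 (1.49 ± 0.15), and 2 fell, Rhox13 (-1.88 ± 0.21) and Stra8 (-1.76 ± 0.21). The medians of the last 2 comparisons were 0.55 against GFRA1pos and 0.34 against KITpos. Among all genes 22.1% rose and 23.0% fell in KITpos against GFRA1neg, and 7.3% rose and 6.84% fell in GFRA1pos against GFRA1neg. In P6gonocyte 17.3% of all genes rose and 21.9% fell against GFRA1pos, and 21.8% rose and 27.3% fell against KITpos.

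A further 33 genes of recombination and synapsis, outside the 34, did not all move as these did. In KITpos against GFRA1neg 9 of the 33 rose and 4 fell, with a median log2 fold change of -0.05. Of all genes 22.1% rose and 23.0% fell in that comparison. Iho1, whose product works with REC114 and MEI4, rose by 1.45 ± 0.21, and Sun2, of the nuclear envelope, fell by 1.17 on the log2 scale with an SE of 0.18. In GFRA1pos against GFRA1neg 1 of the 33 rose and 7 fell, among them Brdt (-1.60 ± 0.29) and the crossover helicase Hfm1 (-1.21 ± 0.29). The median was -0.23 there, and of all genes 7.3% rose and 6.84% fell. In P6gonocyte 8 of the 33 rose and 6 fell against GFRA1pos (median -0.04), and 2 rose and 15 fell against KITpos (median -0.38), where Hfm1 fell by 1.54 with an SE of 0.28. Of all genes 17.3% rose and 21.9% fell against GFRA1pos, and 21.8% rose and 27.3% fell against KITpos.

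Promoter sequences are shown for genes of different roles that moved in at least 1 comparison, with the letters of known binding motifs marked. RefSeq promoters of the GRCm38.p6 build, from 250 bases before to 50 bases after the start site, were found for 28 of the 35 genes. Capitals mark GCGGGA, a motif of the E2F6 type, in either orientation, and CACGTG, the E-box bound by MAX and its partners, and each sequence reads in the direction of its gene.
Meioc, chr11:102665335-102665634, + strand: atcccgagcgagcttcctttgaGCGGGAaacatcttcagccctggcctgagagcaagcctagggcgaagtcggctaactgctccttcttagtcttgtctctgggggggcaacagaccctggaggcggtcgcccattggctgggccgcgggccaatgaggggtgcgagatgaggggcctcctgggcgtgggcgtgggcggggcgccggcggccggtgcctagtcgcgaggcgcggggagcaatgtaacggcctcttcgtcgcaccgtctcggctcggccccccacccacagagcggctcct
Dmc1, chr15:79605060-79605359, - strand: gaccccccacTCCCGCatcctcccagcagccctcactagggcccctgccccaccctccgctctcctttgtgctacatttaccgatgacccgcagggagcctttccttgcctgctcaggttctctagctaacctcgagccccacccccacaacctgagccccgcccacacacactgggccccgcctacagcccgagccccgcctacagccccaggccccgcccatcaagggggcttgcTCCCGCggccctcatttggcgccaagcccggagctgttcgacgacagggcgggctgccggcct
Mei1, chr15:82082226-82082525, + strand: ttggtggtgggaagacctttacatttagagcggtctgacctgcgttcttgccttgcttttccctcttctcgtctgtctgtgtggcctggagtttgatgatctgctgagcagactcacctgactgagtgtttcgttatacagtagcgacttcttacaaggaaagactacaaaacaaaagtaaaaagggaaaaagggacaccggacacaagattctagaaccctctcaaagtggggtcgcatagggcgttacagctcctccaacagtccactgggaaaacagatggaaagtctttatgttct
Sycp3, chr10:88459337-88459636, + strand: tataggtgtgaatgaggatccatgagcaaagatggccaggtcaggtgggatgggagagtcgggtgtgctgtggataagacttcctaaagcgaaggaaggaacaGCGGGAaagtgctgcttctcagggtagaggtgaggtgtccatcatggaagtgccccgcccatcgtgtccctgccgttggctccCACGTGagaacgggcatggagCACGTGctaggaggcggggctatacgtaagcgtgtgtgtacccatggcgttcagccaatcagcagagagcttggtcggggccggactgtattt

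Searched on both strands, GCGGGA stood in the promoters of 17 of the 28 genes (60.7%), against 37.1% of 12164 tested genes with a promoter and 20% of all 32851 promoters. Meioc held it with its first base at position -228 from the start site, Sycp3 at -147, and Dmc1 at -240 and -13 on the other strand. CACGTG was found in 7 of the 28 (25.0%), against 11.3% of tested genes, and Sycp3 held it at -64 and -43. CCTCAG, core letters of the motif reported for STRA8 and MEIOSIN, was found in 11 (39.3%), against 30.6% of tested genes, and the CRE letters TGACGT in 1 (3.57%), against 12.2%. The 28 genes, and the 11 with CCTCAG, include Ankrd31, which was not among the tested genes. The promoter of Mei1 held neither motif marked by capitals. The 4 motifs searched are 6 letters each and none is part of another. Such matches describe the sequence and say nothing of binding.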

How the data were processed

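The deposited table holds raw whole-number counts per gene from RNA sequencing of 17 libraries and grouped here by sample title; its values show no normalization by the authors. The GFRA1pos values assume that a column written GFPa1pos, taken for a misspelling, is replicate 1. Enzymatic dissociation of the testes came first, per the labels' protocols, then sorting, NuGEN Ovation V2 amplification of the RNA and paired reads of TruSeq V2 libraries on a HiSeq2500. Without roles, TopHat2 2.0.4, Bowtie2 2.0.0-6, Bowtie, Trim Galore, DESeq, DESeq2 and mm9 appear in the submitters' processing notes. Not given in the sources used here are the counting program, its annotation and whether strand was used. No label gives a batch, a date or an animal. Totals ran from 5178352 to 12641907 counts per library, so low genes such as Spo11 and Majin carry the most counting error.

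Entrez numbers were matched to symbols for 23930 of 24013 rows with a RefSeq table of GRCm38.p6, and exon lengths, GC content and overlaps came from GENCODE M21, for no coordinates of the files. All 17 libraries were fitted with edgeR 4.0.16 in R 4.3.3 (TMM scaling, filterByExpr by group, 1 mean per group, quasi-likelihood F-test, Benjamini-Hochberg adjustment over 15451 genes, adjusted p under 0.05). The fit was also run on simulated counts, with the same dispersion for every gene and no outlying library, unlike these data. Its outcome is not reported here. SE is the size of the log2 fold change divided by the root of F. The members and the gene lists were chosen with earlier results of these data known, so no list was tested. Named members were up to 5 per direction and comparison with the smallest adjusted p and the most abundant of each role, with others by means and counts. Of the lists up to 4 genes per comparison were named, and beyond these E2f6, Mga and L3mbtl2 in KITpos minus GFRA1neg. Genes marked in the overview plot of 9 levels and the printed promoters were chosen after their values were seen. Alternatives were RLE scaling, no count filter, 1 CPM in 4 libraries, DESeq2 1.42.0, voom in limma 3.58.1, a fit of only the groups compared, the replicate number as a block, each library left out in turn, and, added after the data were seen, leaving out together the library highest in spermatid markers of each adult group. Values of some genes of the lists are not reported here. Figures were drawn with matplotlib 3.10.9.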

Additional observations from a re-analysis of the deposited data

Results flagged for a closer look

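In each of the 136 sets of replicate values (34 genes in 4 groups), the gap of the highest or lowest library to its neighbour was set against the range of the group, with Dixon's 95% critical value for 4 or 5 libraries. Chance flags about 1 in 20 such sets, and 9 passed. In P6gonocyte, replicate 2 stood low in the cohesin gene Smc1b, at 48.2 CPM where the other libraries had 235 to 263 CPM, and in the strand exchange gene Tex15, at 53.5 CPM where the others had 277 to 322 CPM. In KITpos, replicate 4 stood high in 3 genes: the cohesin kleisin Rad21l at 30.9 CPM (others 7.0 to 12.1 CPM), Prdm9 at 54.2 CPM (others 20.3 to 26.3 CPM) and Meiob at 19.3 CPM (others 2.32 to 5.2 CPM). In GFRA1pos, Spata22 was high in replicate 1 at 7.54 CPM (others 3.12 to 3.72 CPM) and Mlh3 in replicate 4 at 39.9 CPM (others 26.5 to 28.3 CPM). In GFRA1neg, Psmc3ip was high in replicate 2 at 50.9 CPM (others 21.5 to 23.7 CPM), the library with most spermatid transcripts, and Mlh3 in replicate 3 at 44.4 CPM (others 30.9 to 32.9 CPM).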

How the results depend on the processing

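Of 136 differences (34 genes in 4 comparisons) 56 were called. Of these 38 passed in every alternative run, 18 were lost in at least 1, and none changed sign, while 19 others passed in at least 1 alternative. Leaving out each library in turn gave 14 to 19 called genes in KITpos minus GFRA1neg (18 in the fit of all libraries), 3 to 8 in GFRA1pos minus GFRA1neg (7), 5 to 8 in P6gonocyte minus GFRA1pos (9) and 18 to 23 in P6gonocyte minus KITpos (22). Under every other alternative the counts of called genes were at most 1.5 times above or below those reported. Without the library highest in spermatid markers of each adult group (KITpos replicate 1, GFRA1pos replicate 2 and GFRA1neg replicate 2) they were 17, 6, 6 and 24 in the same order. Deviations of GFRA1pos and GFRA1neg libraries with the same replicate number correlated at 0.436, 0.490, 0.293 and 0.065 across genes, and those of the other comparisons at -0.232 to 0.206. Since not every pair was above 0.1 and no label ties the numbers to an animal or day, they were not taken as pairs. With the replicate number as a block the counts were 18, 9, 8 and 22, and in GFRA1pos minus GFRA1neg Sycp1 and Terb1 then passed as lower beside the 7 genes reported. Meiob in KITpos minus GFRA1neg was not called in the reported fit and passed as lower in 7 alternatives. Genes near 1 CPM, such as Majin in GFRA1neg replicate 4 at 0.0987 CPM, are limited by depth.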
